A study of Mus musculus with 3 samples.

Results

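The 10 genes described here encode transcription factors of the B cell lineage: *Tcf3*, *Ebf1*, *Foxo1*, *Pax5*, *Ikzf1*, *Ikzf3*, *Irf4*, *Irf8*, *Spib* and *Bach2*. They were chosen by symbol for their known role and not by a rule on measured values, though earlier results of these data were known. All 10 were found among the 50686 genes of the count table. Their poly(A) RNA was read in 3 BCR::ABL1+ cell lines of 1 genotype, Cdk6 KM/KM, in which both alleles of *Cdk6* carry the K43M change that removes kinase activity. The lines were obtained from bone marrow of C57BL/6 mice that was transduced with pMSCV-BCR-ABLp185-IRES-GFP, a retroviral vector for the p185 form of the BCR::ABL1 oncogene, and grown until stable lines came up. All 3 lines therefore share the mutant kinase, the oncogene and growth in culture. Whether a line is 1 clone, and the age of the mice, are not given in the sources used here. Wild type and Cdk6-deficient lines were not analysed here, so no genotype is compared, and the values show how high each factor was in kinase inactive cells and how far the 3 lines differed.

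The depth was 21569845, 19633463 and 25773221 gene counts for lines 1, 2 and 3. Levels are given as CPM, that is counts scaled to a common library size, after TMM normalization, which corrects the totals for differences in composition. A count of 0 allows a level of up to 0.118 to 0.152 CPM (3 counts), a limit that covers counting error only. *Cdk6*, the gene with the mutation, had 450, 334 and 239 CPM in lines 1, 2 and 3, a measure that does not read the mutated base. *Xist* was read 18, 15 and 1350 times, so line 3 stands apart in this gene of the inactive X chromosome. The labels call the cells pre/pro-B cells. Of 14 pro-B cell markers 12 reached at least 1 CPM in every line, with *Vpreb2* and *Igll1* among the highest per length, and the pro-B marker *Kit* had 0 counts in all 3 lines. *Dntt* missed this level in line 1. Of the 8 pre-B markers 6 reached it, and *Ms4a1* and *Nrgn* did not. Many markers of other lineages were at or near 0, among them *Cd3e* and *Cebpa*. Of 12 myeloid markers 9 had at most 3 counts in every line, as had 5 of 8 erythroid and megakaryocyte markers. The same held for 6 of 7 NK and dendritic cell and 5 of 10 T cell markers. Others were higher. The T cell markers *Lck* and *Tcf7* had 24.3, 50.6 and 43.2 CPM and 21.1, 11.0 and 23.9 CPM, and the myeloid marker *Fcgr3* had 20.7 CPM in line 3. In a bulk sample, fewer cells of a type and less RNA per cell cannot be told apart.

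B lymphocytes arise from lymphoid progenitors under a small network of transcription factors. The E protein encoded by *Tcf3* and the factor EBF1 open and activate the first B cell genes, together with FOXO1, and PAX5 then commits the cell by activating B cell genes and repressing genes of other lineages. Ikaros (*Ikzf1*) and Aiolos (*Ikzf3*) restrain the proliferation that the pre-B cell receptor drives, IRF4 and IRF8 act with the Ets factors PU.1 and Spi-B on composite Ets/IRF elements and promote light chain rearrangement, and BACH2 represses genes that plasma cells need. *PAX5*, *IKZF1* and *EBF1* are frequent targets of deletion in human BCR::ABL1+ B cell leukaemia.

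All 10 factors were transcribed at 1 CPM or more in each of the 3 lines. The share of all genes that reached this level in every line was not counted, here or for the other lists. Per length of exon, merged over all transcripts, *Tcf3* and *Pax5* were the highest and *Spib* the lowest in the mean, an order that in part depends on the length used. The other 9 spanned at most 1.49-fold between lines, whereas *Spib* spanned a 4.46-fold range with line 2 at the top. Together the 10 genes took between 0.296% and 0.324% of a library's counts and summed to 2998, 3225 and 2998 CPM in lines 1, 2 and 3.

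*Tcf3* (ENSMUSG00000020167.14, minus strand of chromosome 10, 80409514 to 80433647 in mm10) encodes the E proteins E12 and E47, which bind E-boxes. It had 499, 623 and 512 CPM in lines 1, 2 and 3 (mean 545 ± 68.3 CPM, SD, n = 3). Line 2 was 1.25-fold above line 1, and lines 1 and 3 lay close together. The difference between the libraries exceeded counting noise (adjusted p = 3.44e-77, chi-square test of homogeneity with Benjamini-Hochberg adjustment). This test sets library against library and compares no conditions. With line 2 left out it did not (adjusted p = 0.423 in the chi-square test).

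*Ebf1* (ENSMUSG00000057098.14, plus strand of chromosome 11, 44617317 to 45008091) encodes early B cell factor, which acts with the E proteins at genes of the pre-B cell receptor. It had 396, 437 and 415 CPM (mean 416 ± 20.5 CPM, SD, n = 3). The lines lay within 1.10-fold of each other. *Foxo1* (ENSMUSG00000044167.6, plus strand of chromosome 3, 52268336 to 52353221), a forkhead factor kept out of the nucleus by AKT signalling and an activator of *Il7r*, *Rag1* and *Rag2*, had 264, 277 and 201 CPM (mean 247 ± 40.4 CPM, SD, n = 3). Line 3 was the low one, 1.38-fold below line 2. Without line 3, the range of *Foxo1* was 1.05-fold.

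*Pax5* (ENSMUSG00000014030.15, minus strand of chromosome 4, 44524757 to 44710487) encodes the paired domain factor of B cell commitment. It had 789, 849 and 805 CPM (mean 814 ± 30.8 CPM, SD, n = 3), and a range of 1.08-fold was the narrowest of the 10. Its SD on the log2(CPM + 1) scale was at the 9.66th percentile of the 13974 genes whose 3 lines together held at least 10 counts. Without line 2 its difference between libraries was within counting noise (adjusted p = 0.584, chi-square test of homogeneity). *Pax5* and *Ebf1* kept nearly the same proportion in every line: per length of exon, *Pax5* was 2.20, 2.14 and 2.14 times as high as *Ebf1* in lines 1, 2 and 3. The size of this ratio depends on the length used. With the length of 1 transcript, that of the longest coding sequence, in place of all exons, the ratio was 0.853, 0.831 and 0.829, so which of the pair was higher per length turned, while the likeness of the 3 lines remained.

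The 250 bases before the annotated start were read for *Pax5* and *Ebf1*, a pair whose proportion differed little between lines, because the network is known to act on its own genes through such regions. They are printed 5′ to 3′ on the gene's strand from the RefSeq promoter table of GRCm38.p6, the same assembly as mm10, with E-boxes (CANNTG, whose fixed letters read alike on both strands) in capitals. *Ebf1* has 2 windows, and the window before its downstream start is shown because no annotated exon overlaps it, whereas exons of *Ebf1* lie in the other, which held 0 E-boxes. The *Pax5* window is chr4:44710695-44710944 and the *Ebf1* window is chr11:44619978-44620227.
Pax5: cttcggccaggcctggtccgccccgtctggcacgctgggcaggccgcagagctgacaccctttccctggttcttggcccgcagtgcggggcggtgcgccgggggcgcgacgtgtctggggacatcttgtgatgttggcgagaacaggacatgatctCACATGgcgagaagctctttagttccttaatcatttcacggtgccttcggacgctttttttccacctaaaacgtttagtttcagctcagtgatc
Ebf1: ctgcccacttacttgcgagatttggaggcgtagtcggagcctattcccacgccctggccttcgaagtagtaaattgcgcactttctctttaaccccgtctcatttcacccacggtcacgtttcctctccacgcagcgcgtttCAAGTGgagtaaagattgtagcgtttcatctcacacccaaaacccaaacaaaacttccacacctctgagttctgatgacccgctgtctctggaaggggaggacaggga
Each printed window held 1 E-box. Over the 12 windows of the 9 factors that the table lists, 6 windows held at least 1, beside 66.2% of all 32817 windows of this length, so the share in the factors' windows was no higher than over all windows. For the other factors, CCCNNGGG, which holds the half-sites of EBF1, was in 3 of the 12 windows and in 11.8% of all, TGGGAA, the Ikaros core, in 2 and in 21.6%, and GAAANNGAAA, the IRF element, in 1 and in 2.97%. The Ets/PU.1 motif GAGGAAG, the forkhead motif GTAAACA and the motif TGACTCA, which resembles the element that BACH2 and MAFK bind, were in 0 of 12 windows and in 10.6%, 3.16% and 4.46% of all. Each motif was read on both strands. A match is a run of letters and not a shown binding site.

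*Ikzf1* (ENSMUSG00000018654.17, plus strand of chromosome 11, 11685003 to 11772926) encodes Ikaros, a zinc finger factor. It had 369, 330 and 354 CPM (mean 351 ± 20.1 CPM, SD, n = 3), and line 2 was the lowest. *Ikzf3* (ENSMUSG00000018168.8, minus strand of chromosome 11, 98464902 to 98546031) encodes Aiolos, its partner in dimers. It had 132, 152 and 140 CPM (mean 141 ± 10.1 CPM, SD, n = 3), and line 2 was the highest. Per length, *Ikzf1* was 4.24, 3.28 and 3.85 times as high as *Ikzf3* in lines 1, 2 and 3, or 2.18, 1.69 and 1.98 times with the length of 1 transcript. The order of the lines was thus opposite for these paralogs, within ranges of 1.12-fold and 1.15-fold. *Ikzf2*, the gene of the family member Helios, had 0 counts in all lines.

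*Irf8* (ENSMUSG00000041515.9, plus strand of chromosome 8, 120736358 to 120756694) and *Irf4* (ENSMUSG00000021356.9, plus strand of chromosome 13, 30749226 to 30766976) encode the interferon regulatory factors that share Ets partners and many target sites. *Irf8* had 301, 224 and 253 CPM (mean 259 ± 38.9 CPM, SD, n = 3). *Irf4* had 102, 135 and 152 CPM (mean 129 ± 25.5 CPM, SD, n = 3). Line 1 was thus the highest in *Irf8* and the lowest in *Irf4*. Per length, *Irf8* was 2.05-fold above *Irf4* in line 1 and 1.15-fold and 1.16-fold above it in lines 2 and 3. With the length of 1 transcript these ratios were 4.95, 2.78 and 2.78. *Irf4* had the second widest range of the 10 factors, 1.49-fold (adjusted p = 1.75e-49, chi-square test of homogeneity), and *Irf8* had a range of 1.34-fold (adjusted p = 1.62e-52, same test).

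*Spib* (ENSMUSG00000008193.13, minus strand of chromosome 7, 44525993 to 44532071) encodes Spi-B, an Ets factor that shares binding sites with PU.1 in B cells. It was read 227, 920 and 403 times, or 10.5, 46.6 and 15.8 CPM in lines 1, 2 and 3 (mean 24.3 ± 19.5 CPM, SD, n = 3). Line 2 stood apart, 4.46-fold above line 1 and 2.95-fold above line 3, whereas lines 1 and 3 were 1.51-fold apart (adjusted p = 1.51e-146 over the 3 libraries, chi-square test of homogeneity). Its SD on the log2(CPM + 1) scale was at the 97.3rd percentile of the genes kept. Without line 2, the mean of *Spib* was 13.1 CPM. The gene of its relative PU.1, *Spi1*, had 62.3, 62.6 and 98.4 CPM and was highest in line 3. Per length, *Spi1* was 6.34-fold and 6.62-fold above *Spib* in lines 1 and 3 and 1.43-fold above it in line 2. With the length of 1 transcript the ratios of *Spi1* to *Spib* were 2.50, 0.563 and 2.61 in lines 1, 2 and 3, so in line 2 which was higher turned with the length. The third member of this Ets subfamily in the list, *Spic*, had 0 counts in all lines. The 250 bases before the start of *Spib*, chr7:44532072-44532321, are shown because this was the factor that varied most between lines, printed as above with E-boxes in capitals.
Spib: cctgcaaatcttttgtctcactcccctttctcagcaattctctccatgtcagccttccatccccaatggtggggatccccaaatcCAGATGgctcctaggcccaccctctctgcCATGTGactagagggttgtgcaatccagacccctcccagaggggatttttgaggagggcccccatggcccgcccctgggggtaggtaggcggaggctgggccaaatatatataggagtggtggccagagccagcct
The window held 2 E-boxes.

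*Bach2* (ENSMUSG00000040270.16, plus strand of chromosome 4, 32238804 to 32586108) encodes a repressor that forms dimers with small MAF proteins. It had 136, 152 and 152 CPM (mean 146 ± 9.32 CPM, SD, n = 3), and lines 2 and 3 were level with each other. Without line 1 its difference between libraries was within counting noise (adjusted p = 0.937, chi-square test of homogeneity). Per length, *Bach2* was 1.63, 1.63 and 1.68 times as high as its paralog *Bach1* in lines 1, 2 and 3. Of the transcript of *Bach2*, 5.83% lay in 50-base stretches that also occur in other genes, and for *Foxo1* the share was 6.80%. The genes that share them include *Bach2os* and *Gm20402*, which overlap *Bach2* and *Foxo1* on the other strand. How much of either share lies elsewhere in the genome, where reads could be misplaced, was not counted. For the other 8 factors it was 0%. Exons on the other strand overlapped 5.40% of the exon length of *Bach2*, 7.78% of *Foxo1* and, for different genes, 1.41% and 7.18% of *Pax5*. For *Bach2* and *Foxo1* this overlap and the shared stretches are thus not separate limits. The strand setting of the counting is not given in the sources used here.

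**Figure D1:**
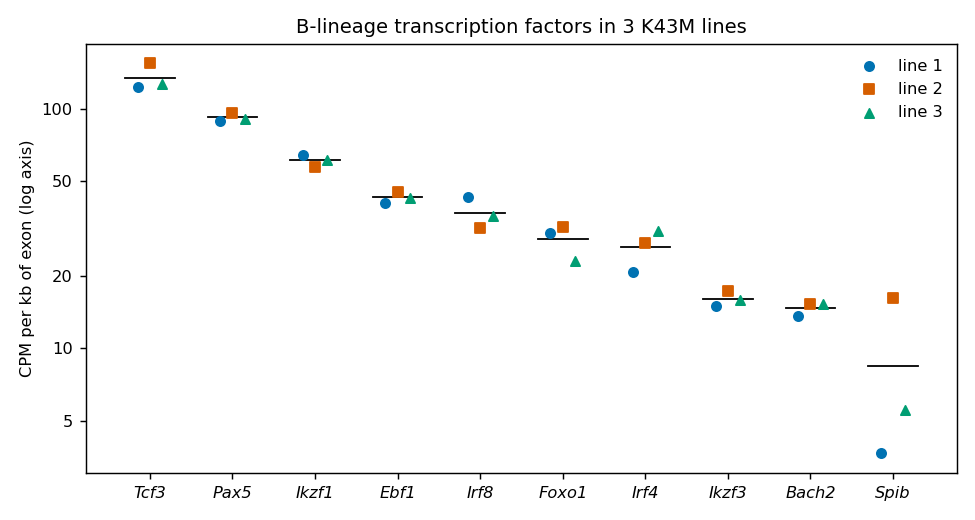
Level of the 10 factors in CPM per kb of exon on a log axis, 1 point for each of the 3 Cdk6 KM/KM lines, ordered by the mean. The points of *Tcf3*, the highest, lie between 124 and 154 and those of *Spib*, the lowest in the mean, between 3.65 and 16.3. *Spib* is spread most, and *Irf4* is next with a range of 1.49-fold.

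To compare levels between genes, CPM were divided by the exon length of each gene in kb. *Tcf3* was highest with 135 ± 16.9 CPM per kb, followed by *Pax5* with 92.0 ± 3.48, *Ikzf1* with 60.8 ± 3.47 and *Ebf1* with 42.6 ± 2.10 CPM per kb (SD, n = 3 each). The values of the 3 lines did not overlap between neighbours in this part of the order. *Irf8* with 36.7 ± 5.51, *Foxo1* with 28.5 ± 4.67 and *Irf4* with 26.4 ± 5.20 CPM per kb came next, and each overlapped its neighbour, *Irf8* also with *Ebf1*. *Ikzf3* with 16.1 ± 1.16 CPM per kb lay below *Irf4* without overlap and overlapped *Bach2* with 14.7 ± 0.938. *Spib* with 8.47 ± 6.80 CPM per kb was last in the mean, but in line 2 it reached 16.3 CPM per kb, within the range of *Ikzf3* and above *Bach2* in that line. *Tcf3* stood at the 98.2nd and *Spib* at the 59.8th percentile of the genes kept.

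The order holds for exons merged over all annotated transcripts. With the length of 1 transcript, that of the longest coding sequence, 38 of 45 pairs of factors kept their order in the mean. The pairs that turned were *Pax5* and *Ebf1*, *Ikzf1* and *Ebf1*, *Ikzf1* and *Irf8*, *Foxo1* and *Ikzf3*, *Irf4* and *Ikzf3*, *Irf4* and *Spib*, and *Bach2* and *Spib*. *Tcf3* was first and *Bach2* last by this length, with 186 and 16.5 CPM per kb.

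**Figure D2:**
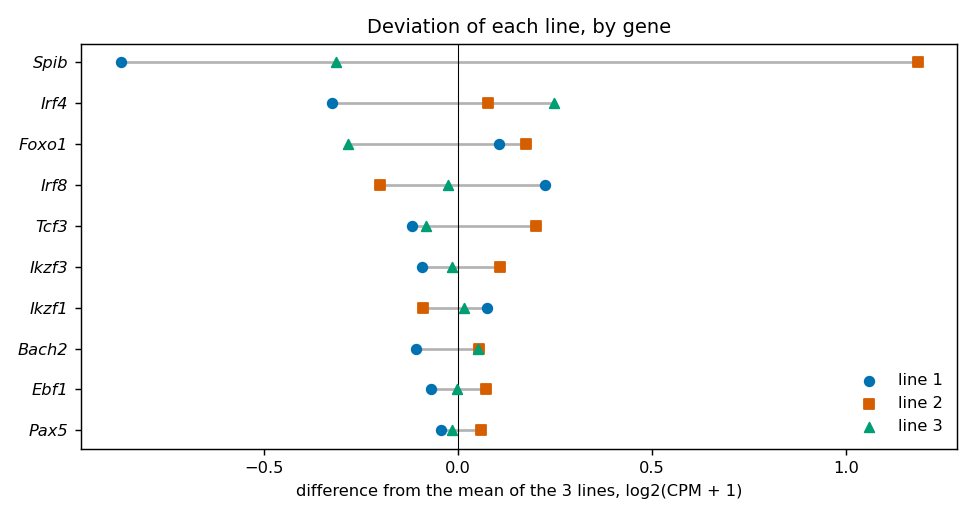
Deviation of each factor in each line from its mean over the 3 Cdk6 KM/KM lines, on the log2(CPM + 1) scale, 1 point for each line. *Spib* spans 2.05 log2 units with line 2 at the top, and the other 9 factors span between 0.10 and 0.57.

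All 10 factors differed between the 3 libraries beyond counting noise, where 66.8% of the 13974 genes kept did so, and at this depth small differences pass such a test. Size separates them better. A range of at least 1 on the log2(CPM + 1) scale is called a 2-fold range here, although genes at a few CPM or less need a wider ratio to reach it. It was reached by 1 factor, *Spib*, beside 10.9% of the genes kept. The median SD between lines was 0.139 for the 10 factors and 0.169 for all genes kept on this scale, and 0.154 for the 9390 genes with a mean of at least 5 CPM. Without line 1, 2 or 3 the median of the 10 factors was 0.104, 0.0777 and 0.129, and that of all genes was not computed then. Line 2 was the highest line for 7 factors (*Tcf3*, *Pax5*, *Ebf1*, *Foxo1*, *Ikzf3*, *Bach2* and *Spib*), line 1 for *Ikzf1* and *Irf8* and line 3 for *Irf4*. Among the 7, *Bach2* was nearly level in lines 2 and 3, with 152.0 and 151.7 CPM. The same 7, 2 and 1 were counted with library size alone and with the size factors of DESeq2. Of all genes kept, 31.2%, 31.7% and 37.1% were highest in lines 1, 2 and 3. Without line 2, 7 factors differed beyond counting noise, and *Tcf3*, *Pax5* and *Ikzf3* did not, and 0 of the 10 had a 2-fold range. Of the 13331 genes kept without line 2, 54.5% and 7.34% did.

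In these lines, neighbouring genes can differ together between lines, as around *Cdk6*. Here 11 genes within 5 Mb of *Cdk6* with a mean of at least 5 CPM had a range of 0.50 in their median deviation, beside 0.91 for *Cdk6* itself (log2 scale). Around the 10 factors such a shift spanned at most 0.14 within 5 Mb. For *Spib* the 69 neighbours spanned 0.05, and after subtraction of their deviation *Spib* still spanned 2.00. The neighbours of *Irf8* spanned 0.01 over 71 genes, those of *Tcf3* 0.05 over 127 genes and those of *Pax5* 0.06 over 73 genes. Around *Irf4* 17 genes spanned 0.12 and *Irf4* spanned 0.57, or 0.46 after subtraction. For *Foxo1* the values were 0.10 over 19 genes, 0.46 and 0.40. The neighbours of *Ikzf1* and *Bach2* spanned 0.14 over 5 genes and 0.11 over 15 genes, beside 0.16 for either factor, and after subtraction the factors spanned 0.16 and 0.12. With genes within 2 Mb, the 3 genes around *Ikzf1* spanned 0.42 and those around *Bach2* 0.23, more than the factors themselves.

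**Figure D3:**
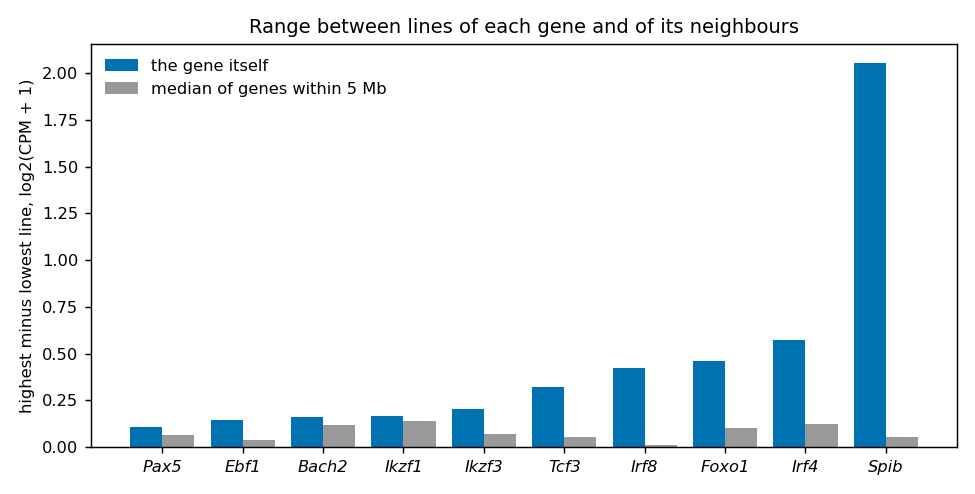
Range between the 3 Cdk6 KM/KM lines on the log2 scale for each of the 10 factors, beside the range of the median deviation of the genes within 5 Mb that have a mean of at least 5 CPM. Bars start at 0. *Spib* reaches 2.05 with neighbours at 0.05, while *Ikzf1* and *Bach2* reach 0.16 with neighbours at 0.14 and 0.11.

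The partners of the E proteins and their Id inhibitors were next examined. *Tcf12*, which encodes the E protein HEB, had 180, 181 and 182 CPM and was within counting noise. *Tcf4*, the gene of E2-2, had 121, 131 and 188 CPM and was highest in line 3. Per length, *Tcf3* was 10.7, 13.2 and 10.8 times as high as *Tcf12* in lines 1, 2 and 3, or 5.96, 7.41 and 6.05 times with the length of 1 transcript. *Id3*, whose product keeps E proteins off DNA, had 58.2, 91.1 and 76.4 CPM, so the line with most *Tcf3* also had most *Id3*. *Id2* had 3.64, 3.50 and 4.01 CPM, and *Id4* had 0 counts. Of these 6 genes 2 differed beyond counting noise, *Id3* and *Tcf4*, and 0 had a 2-fold range, beside 66.8% and 10.9% of all genes kept.

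Among 34 other regulators of early B cells, 29 reached 1 CPM in every line, 28 differed beyond counting noise and 3 had a 2-fold range, beside 66.8% and 10.9% of all genes kept. The highest per length were *Pou2af1*, the gene of the octamer coactivator OBF-1, with 307 ± 55.8 CPM per kb, *Myc* with 237 ± 30.3 and *Cbfb*, the partner of RUNX proteins, with 84.7 CPM per kb. *Pou2af1* had 621, 843 and 886 CPM and *Myc* 715, 659 and 553 CPM in lines 1, 2 and 3. The 3 with a 2-fold range had means below 5 CPM and are named here after their values were seen. *Gfi1* was read 90, 159 and 11 times and *Zfp521* 115, 111 and 0 times, with line 3 the low one, whereas *Klf3* was read 1, 7 and 33 times, with line 3 the high one. With line 1, 2 or 3 left out, 2, 3 and 0 of the 34 genes had it, beside 7.22%, 7.34% and 4.8% of all genes kept then.

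Genes that PAX5 or EBF1 is known to activate were transcribed throughout: 18 of 18 reached 1 CPM in every line, 17 differed beyond counting noise and 6 had a 2-fold range, beside 66.8% and 10.9% of all genes kept. *Vpreb3* had 316, 317 and 354 CPM and *Igll1*, the λ5 surrogate light chain gene, 585, 657 and 543 CPM. Both were among the highest of the list per length, with ranges of 1.12-fold and 1.21-fold. Of the 17 genes, line 3 was the highest for 11, line 2 for 6 and line 1 for 0, beside 37.1%, 31.7% and 31.2% of all genes kept. Those with a wide range differed in which line was highest. *Cplx2* with 289, 744 and 353 CPM was highest in line 2, and *Blk*, a Src family kinase gene, with 65.4, 159 and 129 CPM was lowest in line 1. *Fcrla* with 4.89, 6.13 and 37.4 CPM, *Cd55* with 11.6, 13.2 and 54.6 CPM and *Cr2* with 10.4, 5.07 and 22.2 CPM were highest in line 3. *Pax5* itself spanned 1.08-fold and *Ebf1* 1.10-fold across the same lines. Without line 3, 2 of the 18 genes had a 2-fold range, beside 4.8% of all genes kept then.

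Of 10 genes that FOXO1 is known to activate, 9 differed beyond counting noise and 3 had a 2-fold range, beside 66.8% and 10.9% of all genes kept. Without line 2 these counts were 5 and 1, beside 54.5% and 7.34% of all genes kept then. *Rag1* and *Rag2*, the genes of the V(D)J recombinase, had 22.4, 91.5 and 32.4 CPM and 12.4, 31.8 and 11.0 CPM, and line 2 was the highest for both, as for *Spib*. Without line 2, the range of *Rag1* was 1.43-fold. *Il7r*, the IL-7 receptor gene, was also highest in line 2 with 82.8, 136 and 89.8 CPM. *Foxo1* was lowest in line 3 and nearly level in lines 1 and 2. The highest genes per length were *Cited2* with 365, 265 and 284 CPM, *Sesn1* with 88.1, 89.5 and 108 CPM and *Il7r*.

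Of 8 genes of light chains and antigen presentation linked to IRF4 and IRF8, 6 differed beyond counting noise and 4 had a 2-fold range, beside 66.8% and 10.9% of all genes kept. Without line 1, 1 had a 2-fold range, beside 7.22% of all genes kept then. *Igkc*, the kappa light chain constant gene, was read 90, 61 and 4986 times, or 4.15, 3.09 and 196 CPM, and *Irf4* was also highest in line 3. Without line 3, *Igkc* had a range of 1.35-fold. *H2-Ab1*, of MHC class II, had 49.7, 19.8 and 26.8 CPM and its chaperone gene *Cd74* 69.3, 43.4 and 74.8 CPM. *H2-Aa* with 5.71, 1.47 and 0.432 CPM and *Ciita*, the class II coactivator gene, with 7.14, 1.82 and 0.668 CPM were named after their values were seen. *H2-Ab1*, *H2-Aa* and *Ciita* were highest in line 1, but *H2-Ab1* was lowest in line 2 and the other pair in line 3, and *Cd74* was highest in line 3. Immunoglobulin constant genes share sequence with related genes, and the treatment of reads with several matches is not given in the sources used here.

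Genes that BACH2 is known to repress had a range of 1 on the log2(CPM + 1) scale in 0 of 5 cases, beside 10.9% of all genes kept, and 4 differed beyond counting noise, beside 66.8%. Without line 3, 0 of the 5 differed, beside 47.1% of all genes kept then. *Fth1*, the ferritin heavy chain gene, had 479, 479 and 600 CPM, *Gclm* 72.2, 67.8 and 65.1 CPM and *Hmox1*, the haem oxygenase gene, 7.93, 6.64 and 11.1 CPM. *Prdm1*, which encodes the plasma cell factor BLIMP1, had 1.15, 1.57 and 2.59 CPM, a ratio of 2.25-fold that stays below 1 on that scale at this level. *Nqo1* was read 3, 9 and 3 times, within counting noise. Per length, *Bach2* was 66.1, 54.3 and 32.9 times as high as *Prdm1* in lines 1, 2 and 3.

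**Figure D4:**
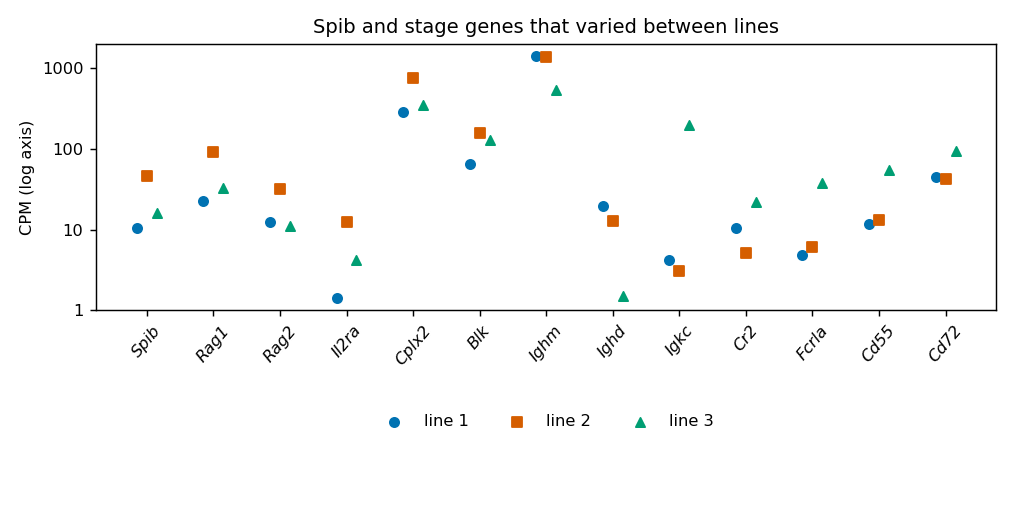
CPM on a log axis of *Spib* and of 12 stage marker and target genes that had a 2-fold range between lines, 1 point for each of the 3 Cdk6 KM/KM lines. *Rag1*, *Rag2* and *Il2ra* are highest in line 2, as *Spib* is, and *Igkc* is highest and *Ighm* lowest in line 3.

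The stage markers separated the lines further. *Il2ra*, the CD25 gene of small pre-B cells, was read 31, 244 and 106 times, or 1.43, 12.4 and 4.16 CPM, and *Cd24a* had 287, 532 and 299 CPM. Both were highest in line 2, as *Spib*, *Rag1* and *Rag2* were. The other 6 pre-B markers were not: *Blnk* with 197, 262 and 293 CPM, *Cd22* with 148, 121 and 171 CPM and *Cd72* with 45.0, 42.7 and 92.8 CPM were highest in line 3, and *Ighm*, *Ms4a1* and *Nrgn* in line 1. The pre-B markers as a list thus did not point to 1 line. *Ighm*, the μ heavy chain gene, had 1406, 1373 and 534 CPM and *Ighd* 19.4, 12.7 and 1.49 CPM, so line 3 was the low one. Pre-B markers with a 2-fold range were 4 of 8, pro-B markers 3 of 14 and immature and mature B markers 5 of 11, beside 10.9% over all genes kept. Without line 1, 2 or 3 the pre-B counts were 3, 4 and 1 and the pro-B counts 3, 1 and 2. The counts of immature and mature B markers were then 2, 4 and 3. Of all genes kept then, 7.22%, 7.34% and 4.8% had a 2-fold range. Of the 11 immature and mature B markers 6 reached 1 CPM in every line. *Fcer2a*, the CD23 gene of mature B cells, had at most 2 counts in any line, the only 1 of them with so few. Of 6 plasma cell markers 5 reached 1 CPM in every line. *Xbp1* had 231, 208 and 260 CPM, *Sdc1* 12.9, 21.5 and 25.8 CPM and *Tnfrsf17* at most 3 counts in any line.

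Some markers of other cells differed between lines, and the T cell marker *Lck* was above *Spib* in CPM in every line. Their part in the differences above was not tested. The 10 T cell markers summed to 45.9, 62.1 and 68.4 CPM in lines 1, 2 and 3. Most of it came from *Lck* with 24.3, 50.6 and 43.2 CPM and *Tcf7* with 21.1, 11.0 and 23.9 CPM. *Cd3e*, *Cd3g*, *Cd8a* and *Bcl11b* had 0 counts. The 12 myeloid markers summed to 4.98, 5.73 and 24.7 CPM, of which *Fcgr3* had 3.23, 3.65 and 20.7 CPM, and *Cebpa*, *Csf3r*, *Elane*, *Ly6g*, *S100a8* and *S100a9* had 0 counts. The 8 erythroid and megakaryocyte markers summed to between 0.645 and 1.27 CPM and the 7 NK and dendritic cell markers to between 0.691 and 0.861 CPM. The 7 stem and multipotent progenitor markers summed to 1.66, 6.79 and 6.68 CPM, with *Cd34*, *Hoxa9*, *Meis1*, *Hlf* and *Mecom* at 0 counts.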

How the data were processed

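Poly(A) RNA was sequenced from 3 BCR::ABL1+ lines with the Cdk6 KM/KM genotype. The authors merged lanes, trimmed reads with Trimmomatic, aligned them with STAR to mm10 and deposited raw counts of reads on exons per Gencode M13 gene, made with featureCounts. The strand setting and the treatment of reads with several matches are not given in the sources used here. The study names the TruSeq kit and the labels the SENSE mRNA-Seq kit. The table holds 6 columns of other samples, which were not used. Of 50686 genes, 50462 were matched to symbols and exons of Gencode M21, and 0 rows named no gene.

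TMM factors came from edgeR 4.0.16 under R 4.3.3, and levels are CPM. A gene was kept if its 3 lines together held at least 10 counts. Spreads are on the log2(CPM + 1) scale. Homogeneity of a gene's counts over the libraries was tested by chi-square with Benjamini-Hochberg adjustment over all genes kept at 0.05. It was tried on simulated counts that held counting noise and set 2-fold changes only. That trial does not show how the test behaves with other variation between libraries. The samples are separate lines of 1 group, so p-values compare libraries and no groups. Totals of 19633463 to 25773221 counts set the precision. Sequences are from the RefSeq table of GRCm38.p6, where 9 of the 10 genes matched.

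The genes and lists were chosen with earlier results of these data known. Named are the 10 factors, and from each list the 3 highest per length, genes with a 2-fold range and a mean of at least 5 CPM (at most 5 a list, by range) and genes with at most 3 counts in every line, except some genes that are not reported here. Ratios between factors, also with the length of 1 transcript, were chosen after the data were seen. The alternatives tried were other filters, library size alone, size factors of DESeq2 1.42.0, a pseudocount of 0.1 CPM, windows of 2 Mb, the length of 1 transcript and leaving out each line.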

Additional observations from a re-analysis of the deposited data

How the results depend on the processing

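No paired analysis was possible because there is 1 group of 3 libraries. With a pseudocount of 0.1 CPM, 3183 genes had a 2-fold range, where 1530 did with 1 CPM. When each line was left out, the number of genes with a 2-fold range lay between 621 and 979, and the number that differed beyond counting noise lay between 6098 and 7267, where 9341 did over the 3 lines. Of the 10 factors, 0 to 1 then had a 2-fold range and 7 to 10 differed beyond counting noise. The factor with a 2-fold range was *Spib*, which lost it without line 2. Counts were called alike within a fixed ratio. A level was called alike within its gene's SD between the 3 lines, and the range of its neighbours within that gene's SD on the log2 scale. The median SD was judged against the SD of the 10 factors' own SDs, which *Spib* widened. By these rules 57 of 60 values under other settings stayed alike, and 43 of 48 with a line left out. Levels of the factors made up 50 of these values, and 50 stayed alike. With a line left out, the mean of 2 lines can move little against the spread of the 3, so alike levels show little there. Other scaling moved levels little against the same spread, and the median SD was held to a wide one. These alike calls also show little. With 3 lines, depth limits genes near the 3-count level, and the number of lines limits all spreads.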

Other observations

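Genes that PAX5 is known to repress were of mixed level. Of 10 such genes, 5 reached 1 CPM in every line, 8 differed beyond counting noise and 6 had a 2-fold range, beside 66.8% and 10.9% of all genes kept. The highest per length were *Grap2*, an adaptor gene, with 127, 121 and 111 CPM, *Itgal*, the LFA-1 integrin gene, with 141, 57.5 and 64.6 CPM, and *Notch1* with 82.2, 84.8 and 108 CPM in lines 1, 2 and 3. *Ccl3* was read 1 time in each line. *Emb* was read 0, 0 and 84 times, so it was seen in line 3 alone, and it was named after its values were seen. *Pax5* was within 1.08-fold across the same lines. Without line 1, 1 of the 10 genes had a 2-fold range, beside 7.22% of all genes kept then, and without line 3, 5 differed beyond counting noise, beside 47.1%.

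Regulators of germinal centre and plasma cells were the other group examined. *Xbp1*, the secretory pathway regulator, led with 71.7 ± 8.05 CPM per kb (SD, n = 3). *Bcl6*, the germinal centre repressor gene, had 0.92, 2.18 and 0.94 CPM. *Zbtb20* had 6.54, 7.85 and 2.95 CPM, and line 3 was the low one. Of the 6 genes 5 differed beyond counting noise and 2 had a 2-fold range, beside 66.8% and 10.9% of all genes kept. Without line 3 these counts were 3 and 0, beside 47.1% and 4.8%, and without line 2, 1 gene had a 2-fold range, beside 7.34%.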
